A study of Mus musculus with 4 samples.

Results

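Chemokine receptors were followed in single-cell RNA libraries of liver leukocytes from exercised and sedentary mice. The 9 receptors Cxcr6, Cxcr3, Ccr7, Cxcr5, Ccr9, Xcr1, Ccr2, Cx3cr1 and Cxcr4 were taken by gene symbol from the 27998 genes counted in each of 4 libraries, and each symbol was found once. All mice were adult wild-type C57BL/6 animals. The Exercise group (2 libraries) ran on a motorized treadmill at 12.5 m/min, with daily sessions of 60 min on 5 days of each week, for 4 weeks. The Sedentary group (2 libraries) spent the same sessions on a stationary belt. Serum alanine aminotransferase, an enzyme released by damaged liver cells, was 26 and 59 U/L in Exercise libraries 1 and 2 and 33 and 56 U/L in Sedentary libraries 1 and 2. Cells were released with collagenase, separated from hepatocytes, and selected with magnetic beads for CD45, the surface protein of leukocytes. How many mice were in a library was not given, so p-values measure only the spread between these libraries.

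Chemokine receptors are G protein-coupled receptors that steer leukocytes toward cells secreting chemokines, small proteins held on cell surfaces and matrix. CXCR6, CXCR3 and CCR2 guide lymphocytes and monocytes into inflamed tissue, CCR7 and CXCR5 draw cells into the zones of lymph nodes and follicles, and CCR9 is known for homing to the gut. XCR1 marks the dendritic cells that present antigen to CD8 T cells, CX3CR1 is carried by monocytes and tissue macrophages, and CXCR4 retains cells in niches rich in its ligand. In mouse liver, CXCR6 is known for the patrolling of natural killer T (NKT) cells along the sinusoids, whose lining cells display its ligand CXCL16.

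The libraries held 15383 cell barcodes, of which 14560 were kept (2849 and 4078 in Exercise, 3896 and 3737 in Sedentary). Total counts of unique molecular identifiers (UMIs, 1 per captured RNA molecule) were 10050976 and 14849778 in Exercise and 10662091 and 11826183 in Sedentary libraries. Between 11 and 31 barcodes were shared by a pair of libraries. Clustering without the 9 receptors gave 27 clusters, and marker genes placed 14387 cells in 19 classes. Class names end in "-like" since they were given from markers only. Ptprc, which encodes CD45, averaged 149.7 to 889 CPM (UMIs per 1000000 UMIs of the class) in the leukocyte classes, against 35.4 CPM in the endothelial (LSEC-like) and 73.1 CPM in the stellate-like class, so the selected fraction also held cells that are not leukocytes. The libraries differed in transcripts of hepatocytes and red cells. The summed level of 9 hepatocyte markers was 83.9 and 66.3 CPM in Exercise, against 772 and 364 CPM in Sedentary libraries, and that of 7 red-cell markers was 47.7 and 129 CPM against 2196 and 367 CPM. Both lists were higher in both Sedentary libraries. The red-cell transcripts were uneven between classes. In Sedentary library 1 their sum was 19562 CPM in cDC1-like and 2608 CPM in Kupffer-like cells, and at most 70.4 CPM in every other class.

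The genes of 3 of these receptors lie side by side on mouse chromosome 9 and were highest in 3 different cell classes, so their promoters are shown. In the GENCODE annotation of GRCm38, Ccr9 lies at chr9:123678439-123784330 (+ strand), Cxcr6 at chr9:123806475-123811760 (+ strand) and Xcr1 at chr9:123852315-123862029 (- strand). The gaps between neighbours are 22.1 kb and 40.6 kb, and all 3 lie within 183.6 kb. Ccr9 was highest in pDC-like cells, Cxcr6 in NKT or memory T-like cells and Xcr1 in cDC1-like cells. Cxcr3, on chromosome X (chrX:101731535-101734269, - strand), was highest in the same class as Cxcr6, and its promoter is shown beside the others. Each sequence is the 250 bases before the RefSeq start on GRCm38.p6, read 5′ to 3′ on the gene's strand, at chr9:123766961-123767210 (+) for Ccr9, chr9:123806227-123806476 (+) for Cxcr6, chr9:123862030-123862279 (-) for Xcr1 and chrX:101734148-101734397 (-) for Cxcr3. RefSeq and GENCODE starts differ. The Ccr9 stretch lies wholly, and the Cxcr3 stretch in part, inside the GENCODE span of its gene. Capitals mark matches to 3 motifs, searched on both strands.
Ccr9: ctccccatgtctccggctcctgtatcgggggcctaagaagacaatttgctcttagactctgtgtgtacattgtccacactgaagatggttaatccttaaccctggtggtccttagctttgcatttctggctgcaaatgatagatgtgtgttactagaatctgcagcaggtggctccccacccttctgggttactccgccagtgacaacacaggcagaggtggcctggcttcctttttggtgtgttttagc
Cxcr6: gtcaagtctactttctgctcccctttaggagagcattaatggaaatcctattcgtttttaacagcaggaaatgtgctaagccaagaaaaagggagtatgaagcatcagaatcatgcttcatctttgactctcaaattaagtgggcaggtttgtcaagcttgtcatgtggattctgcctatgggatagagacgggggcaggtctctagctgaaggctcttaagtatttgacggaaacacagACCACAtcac
Xcr1: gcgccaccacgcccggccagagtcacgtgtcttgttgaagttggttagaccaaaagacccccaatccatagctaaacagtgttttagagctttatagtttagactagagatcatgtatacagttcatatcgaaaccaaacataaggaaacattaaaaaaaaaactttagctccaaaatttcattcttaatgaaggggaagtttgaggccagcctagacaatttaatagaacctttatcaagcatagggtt
Cxcr3: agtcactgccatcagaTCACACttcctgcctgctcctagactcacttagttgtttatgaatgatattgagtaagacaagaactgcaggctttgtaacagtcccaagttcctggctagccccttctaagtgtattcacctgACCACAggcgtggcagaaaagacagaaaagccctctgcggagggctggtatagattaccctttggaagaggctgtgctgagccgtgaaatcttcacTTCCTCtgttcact
The motifs were TGTGGT (core letters of the Runx factors), GTGTGA (a site of T-box factors) and GAGGAA (a core of PU.1 sites). Of 27025 mouse promoters of the same length, 14.18% held the first, 12.23% the second and 23.13% the third. The Cxcr6 promoter held 1 Runx match, and the Cxcr3 promoter held 1 match to each of the 3, with no overlap between them. The Runx and PU.1 matches of Cxcr3 lie inside the GENCODE span of the gene. A RefSeq promoter was matched for 7 of the 9 receptors. Of the other 5, that of Cx3cr1, a myeloid receptor, also held 1 Runx match, and those of Ccr9, Xcr1, Ccr2 and Cxcr4 held no match to any of the 3. The Cx3cr1 stretch lies wholly, and the Ccr2 stretch mostly, inside the GENCODE span of its gene.

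The receptors divided the classes between them, as the heat map of levels by class shows. Values below are CPM of one gene in different classes. The counts come from the 3′ ends of transcripts and are not scaled by length, so levels of different genes are not compared. Classes come from clustering the same cells, so differences in level between classes carry no test.

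**Figure D1:**
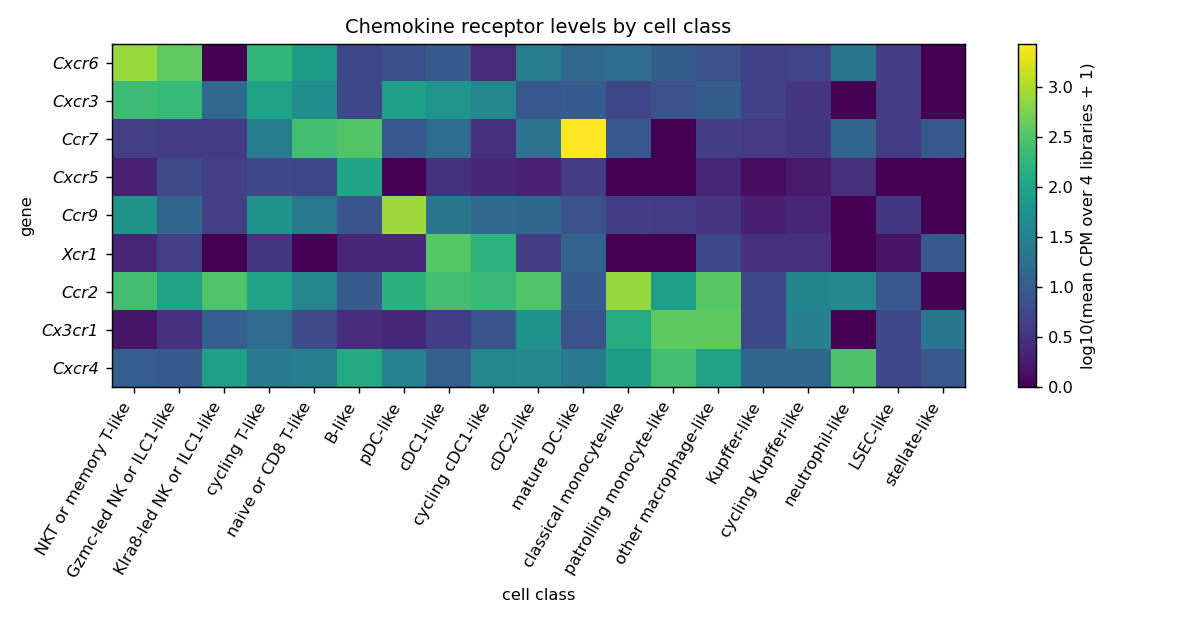
Mean level of each receptor (rows) in each of 19 cell classes (columns), as log10 of the mean CPM over the 4 libraries plus 1. Cxcr5, Ccr9 and Xcr1 each have 1 bright class among the 13 tested, with mean levels of 108, 847 and 346 CPM, while Ccr2 and Cxcr4 are spread over many classes.

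Cxcr6, the receptor for CXCL16, was highest in NKT or memory T-like cells (1880 cells, markers such as Cd3e and Zbtb16). It reached 908 and 682 CPM there in Exercise, against 890 and 697 CPM in Sedentary libraries. This class held 83.6% of all Cxcr6 UMIs on average (80.8% to 90.2% by library). A Cxcr6 UMI was found in 83.7% of these cells (51.1% after each cell was thinned to 1000 UMIs), against 0.746% of B-like cells (0.381% thinned), which should lack it. Median depth was 2721 UMIs in the first class and 1525 UMIs in the second. The next class was the Gzmc-led NK or ILC1-like class (natural killer or innate lymphoid cells), with 386 and 379 CPM in Exercise and 416 and 369 CPM in Sedentary. Its libraries did not overlap with those of the first class. The other NK or ILC1-like class, led by the NK receptor gene Klra8, gave 0 Cxcr6 UMIs in 139 cells (median 1838 UMIs), which allows up to 2.16% of cells with a UMI and sets no limit on cells expressing the gene. Of the Gzmc-led cells, 57.8% had a Cxcr6 UMI. The Gzmc-led class also carried T cell marker transcripts. The summed level of 7 such markers was 2524 and 3308 CPM in Exercise and 2677 and 2617 CPM in Sedentary libraries. That is near the sum in naive or CD8 T-like cells (2879 to 3045 CPM), but Cd3g alone averaged 1770 CPM in the Gzmc-led class. In the Klra8-led class the sum was 214 and 98.95 CPM in Exercise and 104 and 254 CPM in Sedentary, and the part of these markers in the Cxcr6 contrast was not tested. Cells with naive or CD8 T markers averaged 72.9 ± 8.54 CPM (SD over 4 libraries). Cxcr6 overlaps Fyco1 on the other strand, and whether strand was used in counting was not given, so reads of the 2 genes may not be separable.

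Cxcr3, the receptor for the interferon-induced chemokines CXCL9 and CXCL10, had its top level in the same T class. It stood at 224 and 233 CPM in Exercise against 259 and 182 CPM in Sedentary libraries. The Gzmc-led class followed with 243 and 181 CPM in Exercise and 215 and 164 CPM in Sedentary, and the libraries of the 2 classes overlapped. Cxcr3 was also found in pDC-like cells at 84.6 ± 17.1 CPM, in cDC1-like cells at 62.7 ± 16.6 CPM and in naive or CD8 T-like cells at 47.7 ± 9.35 CPM (SD, n = 4 libraries). After thinning, a Cxcr3 UMI was seen in 5.93% of pDC-like, 6.54% of cDC1-like and 4.62% of naive or CD8 T-like cells, against 0.396% of Kupffer-like cells, which should lack it. Within the NKT or memory T-like class, Cxcr6 and Cxcr3 were seen together in 218 of 1876 thinned cells. Of cells with a Cxcr6 UMI, 22.7% also had a Cxcr3 UMI, against 21.4% of those without. For Ccr2 the shares were 23% with and 22% without Cxcr6, and Ccr2 was seen in 27% of cells with and 21% of cells without Cxcr3. In the Gzmc-led class, Cxcr3 was seen in 21.8% of cells with and 15.1% of cells without Cxcr6. These shares pool cells of 4 libraries and carry no test.

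Ccr7, which binds CCL19 and CCL21 and brings cells into lymph nodes, was highest in mature DC-like cells (60 cells, markers such as Fscn1 and Ccl22). It measured 3771 and 2459 CPM there in Exercise and 2475 and 2172 CPM in Sedentary libraries. These few cells held 30.9% of all Ccr7 UMIs on average, and B-like cells held 44.8%. Among the 13 classes large enough to be tested (20 cells or more per library), B-like cells were first with 277 and 303 CPM in Exercise and 289 and 410 CPM in Sedentary. Naive or CD8 T-like cells overlapped with them, with 240 and 198 CPM in Exercise and 333 and 235 CPM in Sedentary. In this T class, Ccr7 was seen in 6.67% of thinned cells with a Cxcr6 UMI (2 of 30 cells) and in 21.2% of cells without, and in 8.33% of cells with Cxcr3 (2 of 24 cells) and 21% of cells without.

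Cxcr5, the receptor for the B-cell attractant CXCL13, had 87.7% of its UMIs in B-like cells. It stood at 113 and 99.8 CPM there in Exercise and 112 and 107 CPM in Sedentary libraries. In all other classes it averaged at most 5.09 CPM, and LSEC-like cells gave 0 UMIs in 868 cells, which allows up to 0.346% of cells with a UMI at a median of 2162 UMIs and sets no limit on cells expressing the gene. Cxcr5 (chr9:44511787-44561877, - strand) overlaps Bcl9l on the other strand.

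Ccr9, which binds the gut and thymus chemokine CCL25, was highest in pDC-like cells (455 cells, markers such as Siglech), the plasmacytoid dendritic cells that make type I interferon. It reached 698 and 836 CPM in Exercise and 790 and 1064 CPM in Sedentary libraries. The class held 70.5% of Ccr9 UMIs, and 88.4% of its cells had one, against 0.294% of Kupffer-like cells. The NKT or memory T-like class was next at 63.5 and 54.8 CPM in Exercise and 61.9 and 57.0 CPM in Sedentary, a range clear of the pDC-like one. The gene's annotated span overlaps Slc6a20a and Lztfl1 on the other strand.

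Xcr1 binds XCL1, which NK cells and CD8 T cells secrete. It was found mostly in cDC1-like cells (325 cells, markers such as Clec9a), with 357 and 366 CPM in Exercise and 342 and 320 CPM in Sedentary libraries. Cycling cDC1-like cells were lower, at 193 and 104 CPM in Exercise and 223 and 131 CPM in Sedentary. The 2 classes together held most Xcr1 UMIs (83.5% and 10.2%). Among the 13 tested classes no other averaged above 4.88 CPM.

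Ccr2, the receptor for the monocyte attractant CCL2, was the most widely spread of the set. It was highest in classical monocyte-like cells, with 688 and 694 CPM in Exercise and 1065 and 699 CPM in Sedentary libraries. Other macrophage-like cells followed with 546 and 275 CPM in Exercise and 392 and 223 CPM in Sedentary. The Klra8-led, cDC2-like, cDC1-like and NKT or memory T-like classes averaged 309, 303, 254 and 252 CPM, and neighbours in that order overlapped. With its 1880 cells, the NKT or memory T-like class held the largest share of Ccr2 UMIs, 29.5% on average, and the classical monocyte-like class held 19.4%. A Ccr2 UMI was seen in 22.4% of the thinned T cells and 49.4% of the thinned monocytes, against 0.856% of B-like cells, which should lack it. Ccr2 lies 239.9 kb beyond Xcr1 on chromosome 9 (chr9:124101950-124113557, + strand).

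Cx3cr1, the receptor for the membrane-bound chemokine CX3CL1, was highest in other macrophage-like cells, with 490 and 416 CPM in Exercise and 325 and 316 CPM in Sedentary libraries. Patrolling monocyte-like cells (97 cells) averaged 382 ± 95.9 CPM, and classical monocyte-like cells averaged 130.1 ± 27.8 CPM (SD, n = 4 libraries). Cx3cr1 and Ccr2 thus ran in opposite order in the classical monocyte-like and other macrophage-like classes. The annotated span of Cx3cr1 (chr9:119901616-120069879, - strand) contains or touches 5 other genes, of which Gorasp1, Csrnp1 and Xirp1 are on its strand, so its counts are uncertain.

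Cxcr4, the receptor for CXCL12, had no single class. Its highest averages were in neutrophil-like cells at 302 ± 83.2 CPM and patrolling monocyte-like cells at 256 ± 129 CPM (SD, n = 4 libraries), which rest on 159 and 97 cells. B-like cells were first among the 13 tested classes and held 36.2% of Cxcr4 UMIs. All neighbours in the order of the tested classes overlapped. Kupffer-like cells were low, at 4.69 and 9.84 CPM in Exercise and 6.13 and 32.9 CPM in Sedentary libraries. Cxcr4 lies on chromosome 1 (chr1:128588199-128592293, - strand) and Ccr7 on chromosome 11 (chr11:99144196-99155077, - strand), and neither overlaps another counted gene.

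The 3 genes whose levels ran most like those of each receptor were ranked by Pearson correlation of mean log2(CPM + 1) across the 13 tested classes, among 8783 genes with at least 20 CPM in a class. These 13 points share 4 libraries, and the values are a description. Cxcr6 was most like the T cell receptor subunits Cd3g (r = 0.97) and Cd3e (0.95), with Podnl1 (0.96) between them. Cxcr5 was most like the B cell genes Pou2af1 (0.96) and Cd79a (0.95), followed by 4930426D05Rik (0.92). Xcr1 was most like A530099J19Rik (0.99), Gcsam (0.98) and Gramd2 (0.97), and Ccr9 was most like Ppp1r14b (0.95), Pacsin1 (0.92) and Nudt16 (0.89). Ccr7 was most like Cpm (0.97), Rapgef4 (0.89) and Tmem108 (0.87). Cx3cr1 was most like the myeloid surface genes Sirpb1a (0.95), Clec5a (0.95) and Sirpb1c (0.93). Ccr2 was most like Arpc1b (0.93), Glipr1 (0.90) and Fxyd5 (0.89), and Cxcr3 like Sytl1 (0.89), Rtn4rl1 (0.89) and Prrt1 (0.88). Cxcr4 had the weakest match, with Zc3h12a (0.86), Arl5c (0.76) and A630001G21Rik (0.76). Gcsam and Pacsin1 were among the markers used to name the cDC1-like and pDC-like classes, and Cd3g, Cd3e and Cd79a among those for T and B cells.

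By mean level, each ligand shown was highest in a class other than the highest class of its receptor, as the heat map of ligands by class shows. Cxcl16, the ligand of CXCR6, was highest in mature DC-like cells (1710 and 1211 CPM in Exercise, 959 and 1148 CPM in Sedentary) and next in other macrophage-like cells (898 and 767 CPM, against 677 and 884 CPM). LSEC-like cells averaged 430.0 CPM and the Cxcr6-rich T class 10.4 CPM. The mature DC-like cells held 374 of 8373 Cxcl16 UMIs, and Kupffer-like cells, the largest class with 6119 cells, averaged 265.1 CPM. Cxcl12, the ligand of CXCR4, averaged 3023 CPM in the 34 stellate-like cells and at most 8.10 CPM in the other 18 classes. Xcl1, the ligand of XCR1, was highest in the Gzmc-led class, with 1662 and 1710 CPM in Exercise and 1496 and 1578 CPM in Sedentary libraries. Xcl1 was among the markers used to name the NK or ILC1-like classes, so its place there follows in part from the naming. Cxcl13, the ligand of CXCR5, was highest in Kupffer-like cells, with 297 and 328 CPM in Exercise and 260 and 295 CPM in Sedentary. Cxcl9 was highest in classical monocyte-like cells (444 CPM on average). Cxcl10 had its highest mean in neutrophil-like cells (516 CPM on 89 UMIs), with 1007 and 775 CPM in Exercise and 49.9 and 231 CPM in Sedentary libraries. Classical monocyte-like cells averaged 480.3 CPM (713 and 240 CPM in Exercise, 150 and 818 CPM in Sedentary), and the libraries of the 2 classes overlapped. Of the CCR2 ligands, Ccl2 had its highest mean in stellate-like cells, where it varied widely (31.8 and 596 CPM in Exercise, 127 and 2371 CPM in Sedentary). These cells held 96 of 3039 Ccl2 UMIs, and Kupffer-like cells averaged 122.9 CPM. Ccl7 and Ccl12 were highest in other macrophage-like cells (91.5 and 38.3 CPM), the second class of Ccr2, where Ccl2 averaged 171 CPM. In classical monocyte-like cells, the first class of Ccr2, the means were 110 CPM for Ccl2, 58.7 CPM for Ccl7 and 3.79 CPM for Ccl12. The CCR9 ligand Ccl25 and the CX3CR1 ligand Cx3cl1 were sparse, with 190 and 16 UMIs in all kept cells. Their highest averages, 9.87 CPM in the Klra8-led class and 11.02 CPM in mature DC-like cells, rest on 3 UMIs each. Cxcl11, Ccl19, Ccl21a and Ccl21b are not analysed here.

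**Figure D2:**
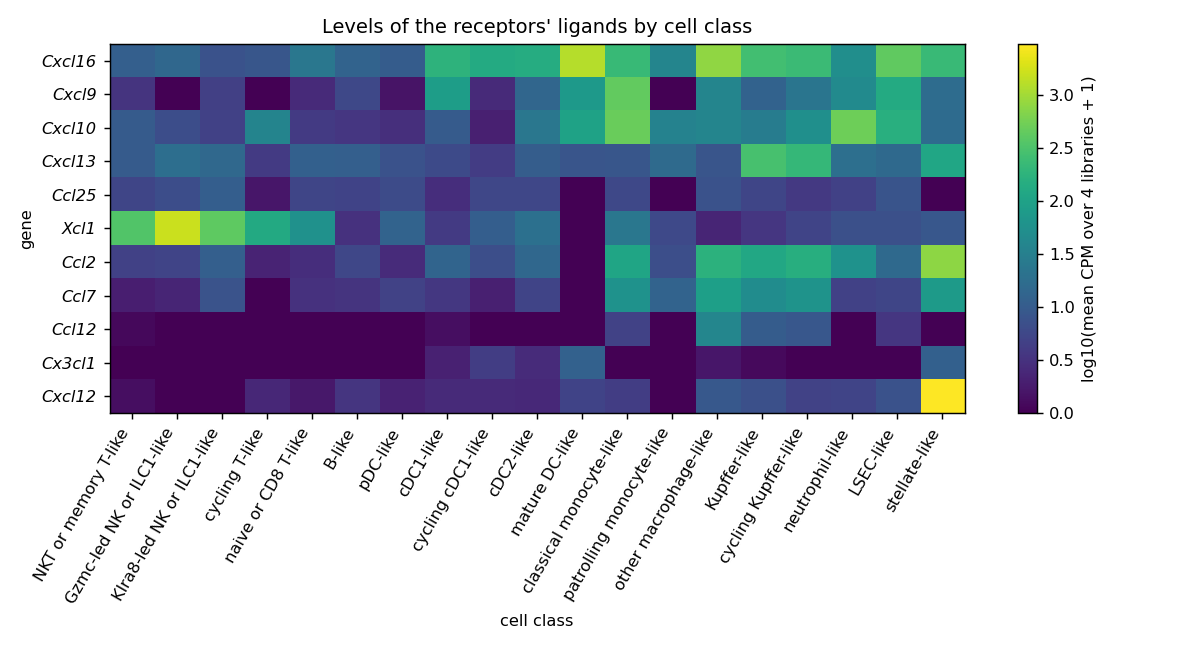
Mean level of 11 ligands (rows) in each of 19 cell classes (columns), as log10 of the mean CPM over the 4 libraries plus 1. Cxcl12 is bright in the stellate-like class alone (3023 CPM). Xcl1 is brightest in the Gzmc-led class (1611 CPM), followed by the Klra8-led (417 CPM) and NKT or memory T-like (339 CPM) classes. Cxcl13 is brightest in the Kupffer-like class (295 CPM), followed by the cycling Kupffer-like (207 CPM) and stellate-like (114 CPM) classes.

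Exercise against Sedentary was tested in each of these 13 classes, on UMIs summed per library. The test was edgeR's quasi-likelihood F-test, with p-values adjusted by Benjamini-Hochberg over all genes of a class. A receptor passed the filter on low counts in 43 receptor and class pairs. None of the 43 was called at an adjusted p of 0.05, against 0.102% of all gene tests in these classes. At an unadjusted p under 0.05, edgeR gave 6 of the 43 pairs, against 5.11% of all gene tests. Of these, Cx3cr1 in other macrophage-like cells was higher after exercise, and Cxcr4 in B-like and cDC2-like, Ccr7 in cDC1-like and naive or CD8 T-like, and Cxcr3 in pDC-like cells were lower. DESeq2 called 0 pairs, with 2 at that unadjusted level, against 0.984% of all gene tests by DESeq2. The groups did not overlap in 14 pairs, 6 higher and 8 lower, against 34.3% of all gene tests (18.8% higher, 15.5% lower). The median log2 change of the 43 pairs was -0.04, and 32 lay within 0.5 of zero. The lowest was -4.25 ± 0.75 for Ccr7 in cDC1-like cells (edgeR adjusted p = 0.184), and the highest was 1.02 ± 0.54 for Cxcr6 in cDC2-like cells (adjusted p = 0.913). Both rest on few UMIs, 38 and 34. The first passed the filter through the Sedentary libraries alone and the second through the Exercise libraries alone. Their signs thus follow in part from passing the filter. In simulated counts of the NKT or memory T-like class (7807 genes tested), 55.0% of genes changed by 1 on the log2 scale were recovered. The fit recovered 97.0% of those changed by 2, so changes of 1 or less may be missed. The simulation gave all genes 1 common spread and changed 100 of them at each size. Larger changes may therefore be missed in the real data too. Cxcr4 in cDC2-like cells, at -1.83, was not called. With 2 libraries against 2, an exact permutation test of a single value cannot give a two-sided p below 0.333.

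**Figure D3:**
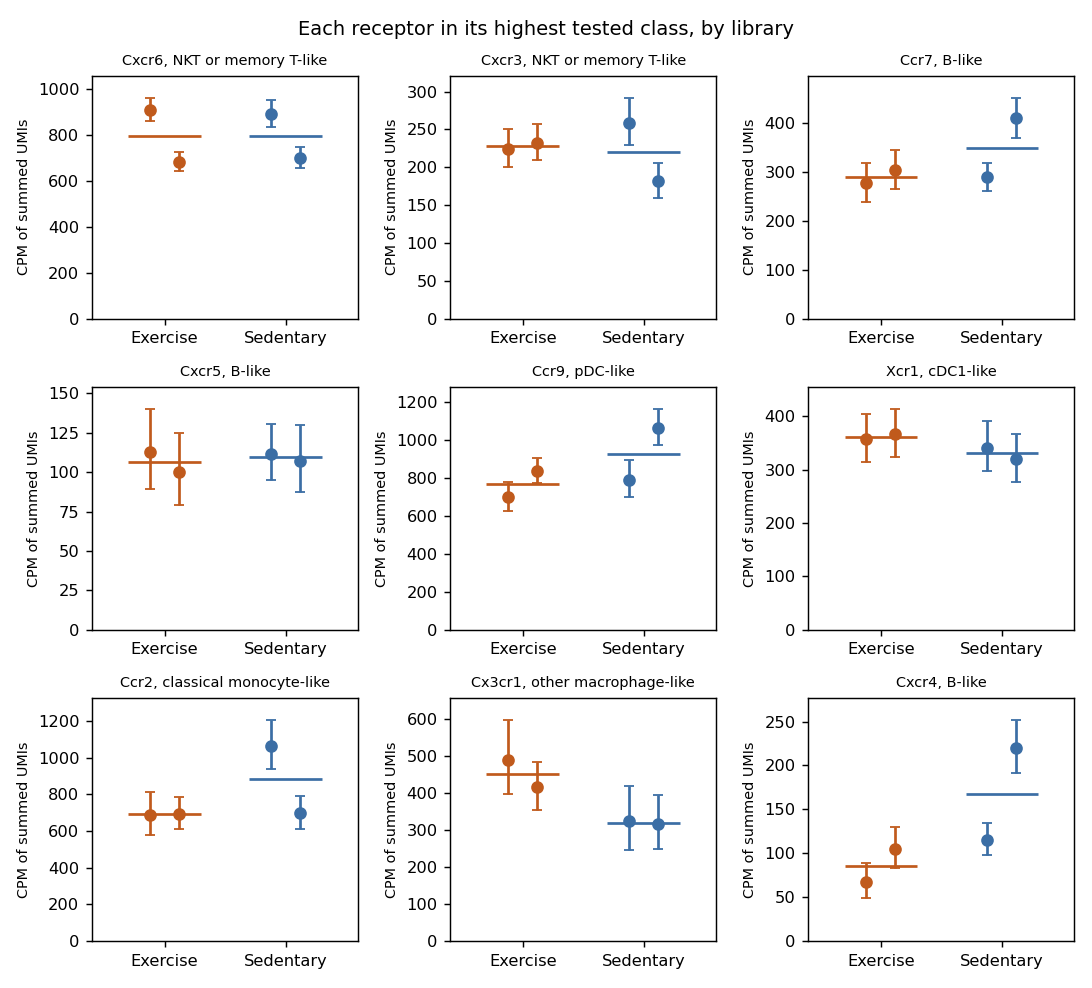
CPM of each receptor in the tested class where it is highest, by library, with exact 95% Poisson intervals that cover counting error only. Lines are group means, Exercise left and Sedentary right. Cx3cr1 and Xcr1 lie higher and Cxcr4 and Ccr2 lower in both Exercise libraries, and the groups of the other 5 overlap.

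Cxcr6, Cxcr3, Xcr1 and Cxcr5 gave small log2 changes in their highest classes, none of them called. Cxcr6 had a log2 change (Exercise over Sedentary) of -0.03 ± 0.15 (SE) in NKT or memory T-like cells (edgeR, adjusted p = 0.995) and -0.04 ± 0.19 in the Gzmc-led class (adjusted p = 0.998). Replicate 1 of both groups was the higher one in the T class. Cxcr3 had a log2 change of 0.02 ± 0.16 and 0.11 ± 0.26 in the same 2 classes (edgeR adjusted p = 0.996 and 0.995). Xcr1 had a log2 change of 0.05 ± 0.14 in cDC1-like cells (adjusted p = 0.989) and Cxcr5 one of -0.07 ± 0.16 in B-like cells (adjusted p = 0.983). Both Exercise libraries were above both Sedentary ones for Xcr1, and the 95% counting intervals of all 4 overlapped. In Sedentary library 1 the cDC1-like cells also carried 19562 CPM of red-cell transcripts, against 3.20 CPM in Sedentary library 2 and at most 1.40 CPM in the Exercise libraries. The part of this in the cDC1-like values was not tested.

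Ccr9 in pDC-like cells had a log2 change of -0.30 ± 0.14 on the log2 scale (edgeR adjusted p = 0.956), with overlapping groups. It was called in these cells when Sedentary library 1 was left out (log2 change -0.49, adjusted p = 0.0165). In NKT or memory T-like cells Ccr9 had a log2 change of -0.04 ± 0.17 (adjusted p = 0.993).

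The myeloid receptors gave values of both signs. Ccr2 had a log2 change of -0.32 ± 0.25 in classical monocyte-like cells (edgeR adjusted p = 1.00) and of 0.39 ± 0.34 in other macrophage-like cells (adjusted p = 0.934). The monocyte value rests on Sedentary library 1, the highest of the 4, and was -0.02 without it. Cx3cr1 in other macrophage-like cells was higher in both Exercise libraries, with a log2 change of 0.48 ± 0.20 (unadjusted p = 0.0372, edgeR adjusted p = 0.724). In classical monocyte-like cells it had a log2 change of 0.02 ± 0.33 (adjusted p = 1.00). Over its 12 tested classes Ccr2 was positive in 10 and ranged between -0.32 and 0.54, and no adjusted p was below 0.884. The signs rest on single libraries: 3 of 12 were positive without Sedentary library 2 and 6 of 12 without Exercise library 1.

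**Figure D4:**
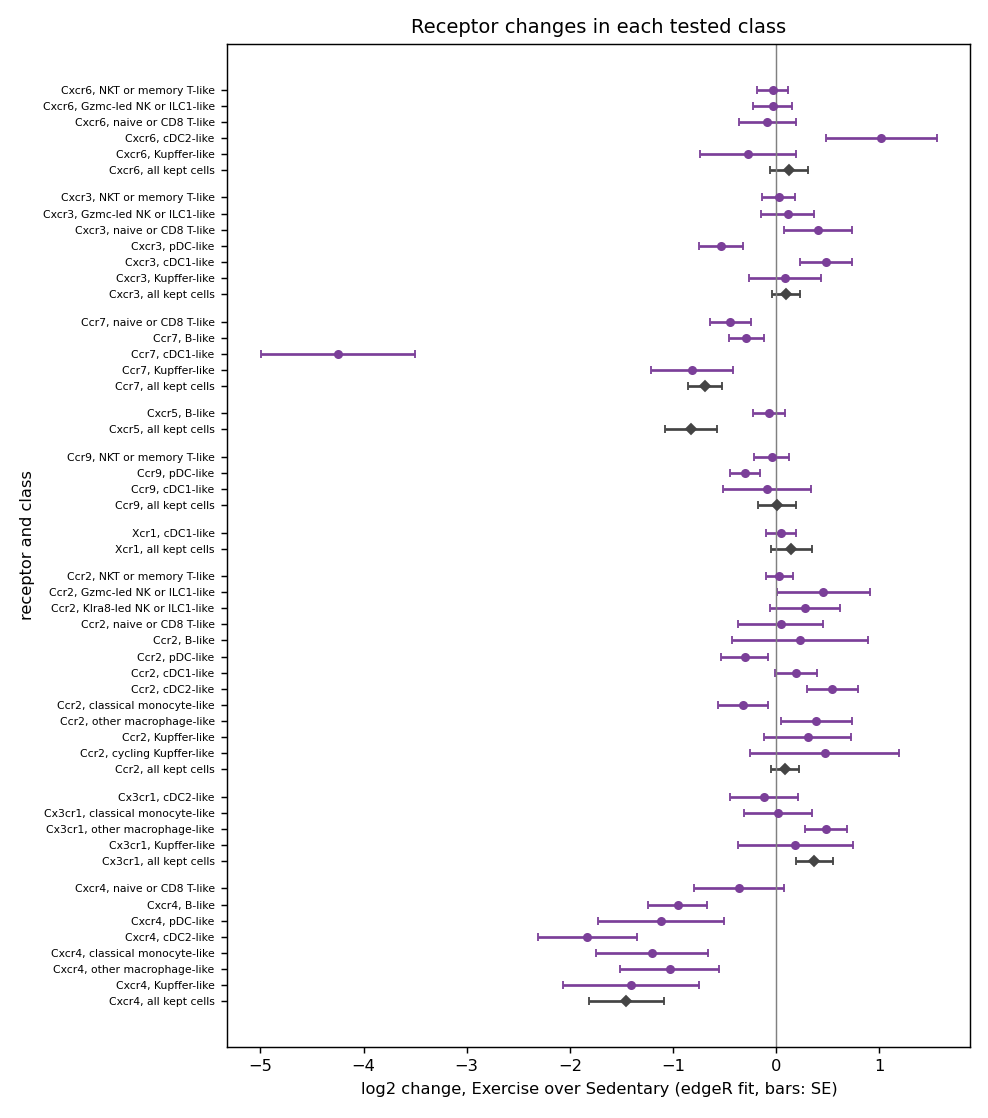
Log2 change of each receptor, Exercise over Sedentary, in every class where it was tested (circles) and over all kept cells (diamonds), with SE bars from the edgeR fit. The 7 classes of Cxcr4 and the 4 of Ccr7 all lie left of zero, and none of the 43 class values was called. Ccr7 in cDC1-like and Kupffer-like cells and Cxcr4 in cDC2-like cells passed the low-count filter through the Sedentary libraries alone. Cxcr6 in cDC2-like cells passed it through the Exercise libraries alone.

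Cxcr4 gave the largest number of negative values after exercise, none of them called. In B-like cells it stood at 66.7 and 105 CPM in Exercise, against 115 and 220.2 CPM in Sedentary libraries. The log2 change was -0.96 ± 0.29 (unadjusted p = 0.00493, edgeR adjusted p = 0.676). In other macrophage-like cells Cxcr4 had 25.5 and 92.4 CPM in Exercise and 78.3 and 185 CPM in Sedentary, a change of -1.03 ± 0.48 (edgeR adjusted p = 0.743) with overlapping groups. Cxcr4 was negative in all 7 classes tested, between -1.83 in cDC2-like and -0.36 in naive or CD8 T-like cells. In cDC2-like cells the libraries held 4 and 6 UMIs in Exercise and 15 and 20 UMIs in Sedentary. Cxcr4 thus passed the filter on low counts in this class through the Sedentary libraries alone.

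**Figure D5:**
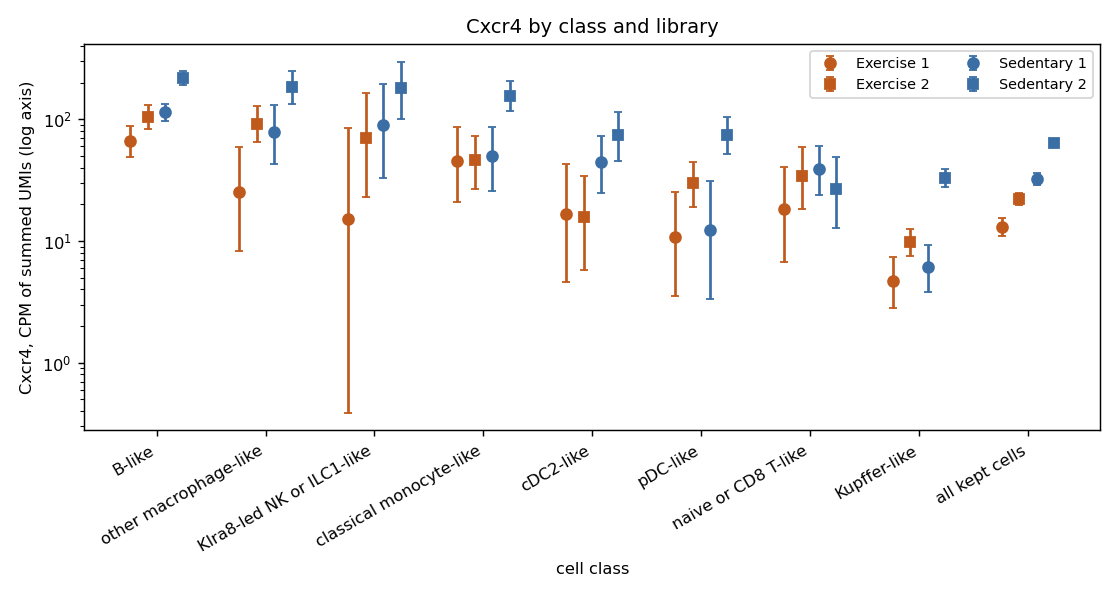
Cxcr4 CPM on a log axis in 8 classes and in all kept cells, by library, with exact 95% Poisson intervals that cover counting error only. In B-like cells both Exercise libraries (66.7 and 105 CPM) lie below both Sedentary ones (115 and 220.2 CPM), and Sedentary library 2 is the highest in most classes.

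The size of the Cxcr4 difference depended on 1 library in most classes. Sedentary library 2 was the highest of the 4 in 11 of the 13 tested classes. Without it, the change was -0.41 in B-like cells (edgeR adjusted p = 0.838), -0.19 in other macrophage-like cells and -0.08 in classical monocyte-like cells (-1.21 with it), and 5 of 8 tested classes were negative. In Kupffer-like cells it was 0.35 without that library and -1.41 with it, and in pDC-like cells 0.83 and -1.12. In cDC2-like cells the change stayed between -2.21 and -1.40 with any library left out, and over all kept cells between -1.91 and -0.85. Without Sedentary library 1, Cxcr4 was called in 5 classes (B-like, Kupffer-like, pDC-like, classical monocyte-like and other macrophage-like), where the lone Sedentary library is assumed to vary like the others. Without Exercise library 2 it was called in B-like cells (-1.36, adjusted p = 0.0013). Early-response genes are induced within minutes of cell stress or handling. The summed level of 12 such genes (Fos, Jun, Egr1 and others, a list added after the receptor values were seen) was 2504 and 2702 CPM in Exercise and 3131 and 4462 CPM in Sedentary libraries over all kept cells. In Kupffer-like cells it was 3162 and 3298 CPM against 4069.6 and 6051 CPM, and in cDC2-like cells 2245 and 2164 CPM against 2621 and 2617 CPM. In B-like cells the groups overlapped, with 2272 and 2728 CPM in Exercise and 2448 and 2999.8 CPM in Sedentary. Their part in the Cxcr4 difference was not tested.

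Ccr7 also gave negative values in all 4 classes tested, none of them called. In cDC1-like and Kupffer-like cells it passed the filter on low counts through the Sedentary libraries alone. The negative sign in these classes thus follows in part from passing the filter. With no filter, Ccr7 was negative in 11 classes and positive in 2. In naive or CD8 T-like cells the log2 change was -0.44 ± 0.20 (unadjusted p = 0.0409, edgeR adjusted p = 0.826) and in B-like cells -0.29 ± 0.17 (adjusted p = 0.919). The groups overlapped in both classes. The lowest adjusted p of the 43 pairs, 0.184, was that of Ccr7 in cDC1-like cells, which held 2 and 0 UMIs in Exercise and 15 and 21 UMIs in Sedentary libraries. The ratio of the summed UMIs per UMI of the class was 0.0494 (exact 95% interval 0.00577 to 0.192, counting error only). The fitted log2 change ranged from -7.29 to -3.28 with a library left out, and such a fit depends on the prior count. The pair was called when Sedentary library 1 was left out (adjusted p = 0.00954), and the counts are small beside the level in mature DC-like cells (2719 CPM on average). The part of mature cells in the cDC1-like counts was not tested.

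Summed over all kept cells, where the makeup of the fraction enters each value, none of the 9 receptors was called (edgeR, against 0.074% of 12156 genes tested). At an unadjusted p under 0.05 edgeR gave 3, against 6.78% of all genes, and DESeq2 called 0, with 3 at that level, against 3.2% of all genes by DESeq2. Cxcr4 had 13.1 and 22.2 CPM in Exercise and 32.3 and 63.4 CPM in Sedentary libraries, a log2 change of -1.45 ± 0.36 (edgeR adjusted p = 0.359). It was called without Sedentary library 1 (adjusted p = 0.0485). Ccr7 had 57.1 and 39.6 CPM in Exercise and 78.8 and 74.0 CPM in Sedentary, a change of -0.69 ± 0.16 (adjusted p = 0.330), and was called without Exercise library 1 (-0.96, adjusted p = 0.0168). Cxcr5 had 9.46 and 6.70 CPM in Exercise and 16.8 and 11.03 CPM in Sedentary, a change of -0.82 ± 0.25 (adjusted p = 0.547). Both Exercise libraries were below both Sedentary ones for these 3 receptors, as for 15% of all genes. B-like cells, which held the largest share of Cxcr5 and Ccr7 UMIs, made up 12.7% and 9.47% of kept cells in Exercise libraries. In Sedentary libraries they made up 21.1% and 15.3%. Within B-like cells the log2 change was -0.07 for Cxcr5, -0.29 for Ccr7 and -0.96 for Cxcr4. The part of the makeup of the fraction in the values over all kept cells was not tested. The other 6 receptors had a log2 change of 0.01 to 0.37 over all kept cells, with adjusted p of at least 0.777.

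The wider chemokine system also gave few calls. The lists held 15 other chemokine receptors, 15 ligands and 20 genes of signalling and desensitization. After the filter on low counts, 0 to 3 of these receptors, 0 to 10 ligands and 6 to 18 signalling genes were tested per class. Of those tested, edgeR called 1 gene in Kupffer-like and 1 in other macrophage-like cells, both lower after exercise. In Kupffer-like cells 0.424% of all genes were called lower, and 10 ligands were tested, with a median log2 change of -0.20 against 0.00 for all genes. The called ligand was Ccl7, which recruits monocytes through CCR2. It stood at 26.7 and 33.6 CPM in Exercise, against 59.9 and 75.1 CPM in Sedentary libraries, a log2 change of -1.15 ± 0.18 (edgeR adjusted p = 0.0424). The call was lost without Exercise library 1 (-0.99, adjusted p = 0.280), without Exercise library 2 (-1.36, adjusted p = 0.179) and with doublets kept (-1.02, adjusted p = 0.253), with log2 changes of similar size. In other macrophage-like cells 0.214% of all genes were called lower. There Rgs1, which dampens G protein signalling of chemokine receptors, stood at 612 and 798 CPM in Exercise and 1466 and 2236 CPM in Sedentary, a change of -1.40 ± 0.21 (edgeR adjusted p = 0.0443). The call was lost without Exercise library 2 (-1.61, adjusted p = 0.854), with RLE scaling (-1.40, adjusted p = 0.0572) and with the receptors among the clustering genes (-1.46, adjusted p = 0.101), with changes as large or larger. The early-response sum in this class was 3786 and 4276 CPM in Exercise and 6384 and 10111 CPM in Sedentary libraries, and its part in the Rgs1 and Ccl7 values was not tested. Among the other receptors, Ccr6 was highest in B-like cells (24 CPM), and Ccr1, Cxcr2 and Ccrl2 in neutrophil-like cells (467, 478 and 572 CPM). The scavenging receptors Ackr1, Ackr2 and Ackr4 were highest in LSEC-like cells (44.0, 19.1 and 21.4 CPM).

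Whether the change of a receptor differed between its 2 highest tested classes was tested for 7 receptors with the library as a block. The difference was not called for any of them (edgeR, smallest unadjusted p = 0.0808, for Ccr2). For Cxcr4 it was 0.08 on the log2 scale between B-like and other macrophage-like cells, and for Cxcr6 it was -0.06 between the T and Gzmc-led classes.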

How the data were processed

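Per the labels' protocols, libraries were made from CD45+ liver cells with a 10x Genomics 3′ single-cell kit, with a target of 6000 cells each. The deposited values are raw UMI counts, 1 whole number for each gene in each barcode. Per the submitters' processing notes, Cell Ranger and Seurat 3.1 were used on mm10 (GRCm38). The series text speaks of nuclei and of a pre-mRNA genome, so intronic reads may be counted. The sources used here give neither the cell calling nor the use of strand. The lowest total per barcode was 931 to 1126 UMIs by library.

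Barcodes under 500 UMIs, under 200 genes or above 20% mitochondrial UMIs were removed (363). Doublets were scored against simulated ones, and 460 cells were removed, 0.8% per 1000 cells. Clustering used log counts per 10000, the 2000 genes of highest variability, 30 components, 20 neighbours and the Leiden method (resolution 1.0, leidenalg 0.10.2, Python 3.11.15). The 9 receptors and hepatocyte and red-cell transcripts were left out of these genes. The hepatocyte and red-cell transcripts were left out after a first clustering had divided Kupffer cells by them. Clusters were named by hand from marker lists, and 173 cells in clusters judged mixed or unclear stayed unnamed. A cluster of 72 of them (42 from Sedentary library 2) had Dapl1, Tcf7 and Cd8a among its top genes, like the naive or CD8 T-like class. Another, of 20 cells, had Siglech and Ccr9 among its top genes. Unnamed cells entered the values over all kept cells and those of no class.

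UMIs were summed per library and class. After filterByExpr, the test was that of edgeR 4.0.16 in R 4.3.3 (TMM, quasi-likelihood F-test, Benjamini-Hochberg at 0.05), without covariates. The script was tested on simulated data. DESeq2 1.42.0 was an alternative, as were RLE scaling, no filter, a replicate block, each library left out, other clusterings, stricter cells and doublets kept. Standard errors came from the change and its F statistic. Shares of cells are given unthinned and after thinning to 1000 UMIs, which left out 145 cells. Intervals are exact at 95% and cover counting error only, and the limit for a count of 0 uses 3 cells. Classes under 20 cells in any library were described and not tested.

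The members and lists were chosen with earlier results of these data known. Named genes are the 9 receptors, called list genes, each ligand in its highest class and the 3 genes most like each receptor. Log2 changes are printed for the 2 highest tested classes of each receptor, and the others (Ccr7 in cDC1-like cells, Cxcr6 in cDC2-like cells and the other classes of Cxcr4) were singled out after their values were seen. Sequences are from RefSeq (GRCm38.p6), and coordinates from GENCODE M21.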

Additional observations from a re-analysis of the deposited data

Results flagged for a closer look

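For 4 comparisons, the Exercise libraries lay on opposite sides of the Sedentary libraries in 2 classes, without overlap in either. The difference between the classes was tested in 1 edgeR fit with the library as a block, and none was called after Benjamini-Hochberg adjustment. Ccr2 was higher after exercise in cDC2-like cells (419 and 307 CPM in Exercise, 306 and 179 CPM in Sedentary) and lower in classical monocyte-like cells, a difference of 0.91 on the log2 scale (edgeR unadjusted p = 0.00537, adjusted p = 0.981). Cxcr3 was higher in cDC1-like cells (81.0 and 68.8 CPM in Exercise, 59.3 and 41.6 CPM in Sedentary) and lower in pDC-like cells (69.4 and 70.2 CPM in Exercise, 98.0 and 100.6 CPM in Sedentary), a difference of 1.04 (edgeR unadjusted p = 0.00404, adjusted p = 0.869). Between naive or CD8 T-like cells (52.4 and 58.2 CPM in Exercise, 42.8 and 37.4 CPM in Sedentary) and pDC-like cells, the Cxcr3 difference was 0.93 (edgeR unadjusted p = 0.0274, adjusted p = 1.00). Cx3cr1 was higher in other macrophage-like cells and lower in cDC2-like cells (54.5 and 55.1 CPM in Exercise, 62.4 and 55.8 CPM in Sedentary), a difference of 0.59 (edgeR unadjusted p = 0.143, adjusted p = 0.934). These pairs were picked for their opposite directions, so the unadjusted p-values overstate them.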

How the results depend on the processing

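The 9 receptors kept their highest tested class under 6 alternatives for levels and by thinned share (9 of 9 each). The 54 levels under these 6 moved by less than 1 SD between libraries. Each cluster of an alternative took the commonest main class among its cells, so this agreement was in part built in. Of 412 values of the 32 log2 changes named, 363 kept their direction and side of the threshold, 21 passed it and 28 changed sign, and 16 of the 32 changes never changed sign.

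Receptor and class pairs called numbered 0. RLE scaling, DESeq2, other clusterings, stricter cells and doublets kept also gave 0, while no filter gave 2 (Cxcr4 in Kupffer-like and B-like cells). Leaving out a library gave 0 to 7, with 7 without Sedentary library 1 (Cxcr4 in 5 classes, Ccr9 in pDC-like, Ccr7 in cDC1-like cells). Over all kept cells, 0 receptors were called, 3 with no filter (Cxcr4, Ccr7, Cxcr5) and 0 to 1 with a library left out.

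Replicate numbers were not taken as pairs, since the labels tie nothing to them and only 2 pairs exist. As a hint from the data, same-numbered deviations correlated above 0 in 12 of 13 classes and above 0.1 in 11 (-0.17 to 0.18; 0.23 over all kept cells). The replicate block raised calls over all genes, for example to 13 higher and 172 lower in Kupffer-like cells, against 1 and 42. With the replicate block, 3 pairs (Cxcr4 in B-like and Kupffer-like, Ccr7 in cDC1-like cells) and 3 receptors over all kept cells were called. In classical monocyte-like cells, where the correlation was -0.17, a crossed block (chosen after seeing the data) called 0 receptors and 1 gene.

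Among the larger changes, Cxcr4 changed sign with a library left out in Kupffer-like (-2.13 to 0.35) and pDC-like cells (-2.14 to 0.83), and in naive or CD8 T-like cells it ranged from -0.95 to 0.0082. The other changes of sign were of smaller values. With a library left out, the log2 change ranged from -0.24 to 0.15 for Cxcr6 in NKT or memory T-like cells, -0.10 to 0.0327 in Gzmc-led cells and -0.19 to 0.39 over all kept cells. Cxcr3 ranged from -0.21 to 0.29, -0.0694 to 0.33 and -0.0445 to 0.25 in the same order. Ccr2 ranged from -0.14 to 0.85 in other macrophage-like and -0.0683 to 0.26 in all kept cells, and Ccr9 from -0.13 to 0.0541 in NKT or memory T-like and -0.21 to 0.28 in all kept cells. Cx3cr1 in classical monocyte-like cells ranged from -0.33 to 0.26, Xcr1 from -0.0019 to 0.0861 in cDC1-like and -0.13 to 0.40 in all kept cells. Ccr9 changed sign in NKT or memory T-like cells with doublets kept (0.0126) and in all kept cells under stricter cells (-0.0030), and Cx3cr1 in classical monocyte-like cells at resolution 2.0 (-0.0031). The cause was not tested.

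Classes under 20 cells in a library, such as mature DC-like (60 cells in all), were not tested.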
